A study of Gallus gallus with 9 samples.

Results

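The 200 genes most restricted to chicken embryonic fibroblasts (CEFs) were described across the 9 libraries of the series, which list 24356 genes. The members were chosen from the deposited normalized values, in CPM (each gene's counts over the library total, times 1e6), with the total adjusted by trimmed mean of M values (TMM). Each gene was given a score, the log2 ratio of its lowest CEF value to its highest value in any other library, with 1 CPM added to both. The 154 genes of the supplementary list of DNA repair, apoptosis, and pluripotency genes were left out, and the 200 highest of the remaining 24202 scores were taken. The higher level in CEFs is therefore what chose these genes, and it is given as a description with no test.

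All libraries came from White Leghorn chickens, with 3 replicates per group and no treatment in the labels. Primordial germ cells (PGCs) were the magnetically sorted SSEA-1+ fraction of 484 to 684 embryonic gonads at Hamburger and Hamilton (HH) stage 28, which is embryonic day 6. EGK.X blastoderms were whole embryos of newly laid eggs at Eyal-Giladi and Kochav stage X, 10 to a replicate. CEFs were adherent cells from the bodies of 5 embryos at HH stage 28, freed of internal organs and limbs. They were grown in serum-containing medium to passage 2. Only CEFs were cultured, so cell type and culture cannot be told apart in these data, and each replicate is a pool of individuals. PGCs were of a later stage than blastoderms and were dissociated with trypsin and sorted, while blastoderms were dissociated mechanically. Cell type, stage, and handling therefore cannot be told apart between PGCs and EGK.X blastoderms. In pooled RNA, fewer cells of a type and less RNA per cell cannot be told apart either.

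Fibroblasts are mesenchymal cells that build and remodel the extracellular matrix, the network of collagens and other secreted proteins that holds tissues together. In culture they spread on the dish and divide, and they are a usual somatic reference for pluripotent and germline cells. PGCs are the precursors of eggs and sperm, and the stage X blastoderm is the avian embryo before gastrulation.

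The identifiers of the members are not paired with gene names in the files and tables used here, and none of the identifiers occurs in the chicken gene table used as reference. Members are therefore called by their rank, with 4 identifiers given below, and no function was assigned to any of them. For the same reason the libraries were not checked with markers of fibroblasts, gonadal somatic cells, blood, or muscle. Named genes of the supplementary list gave a partial check. NANOG, a core pluripotency factor, had 10558, 5421, and 8216 counts in PGCs and 45078, 48462, and 38602 counts in EGK.X blastoderms, against 2, 0, and 0 counts in CEFs. Pou5f3, its partner in the core network, lay between 157 and 207 CPM in PGCs and between 446 and 620 CPM in EGK.X blastoderms, against 8.11 to 10.5 CPM in CEFs. Both genes separated the CEF libraries from the other 6 without overlap. They were picked from the list after their values were seen, and other genes of the list went the other way. INHBA and FGF2, described below, were higher in CEFs than in all other libraries. The paper also reports pluripotency genes that were lower in PGCs and EGK.X blastoderms than in CEFs. The check thus covers these 2 genes only. Total counts on genes ranged from 29512715 in PGC replicate 2 to 67475925 in EGK.X blastoderm replicate 2, and 22698 genes had at least 1 count.

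The scores fell steeply over the first ranks and then levelled off. The member ranked first scored 11.85 and the median member 4.66. A score of 10 or more was reached by 2 members, a score of 8 or more by 13, and a score of 6 or more by 43. Just inside the limit, the last 5 members scored between 3.65 and 3.66, and the 5 genes just outside it scored 3.64 each. The list thus ended on a slope with no gap. At rank 200 the gene had 11.8, 10.5, and 14.3 CPM in PGCs and 0.637, 0.526, and 0.632 CPM in EGK.X blastoderms, against 212, 191, and 268 CPM in CEFs.

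**Figure D1:**
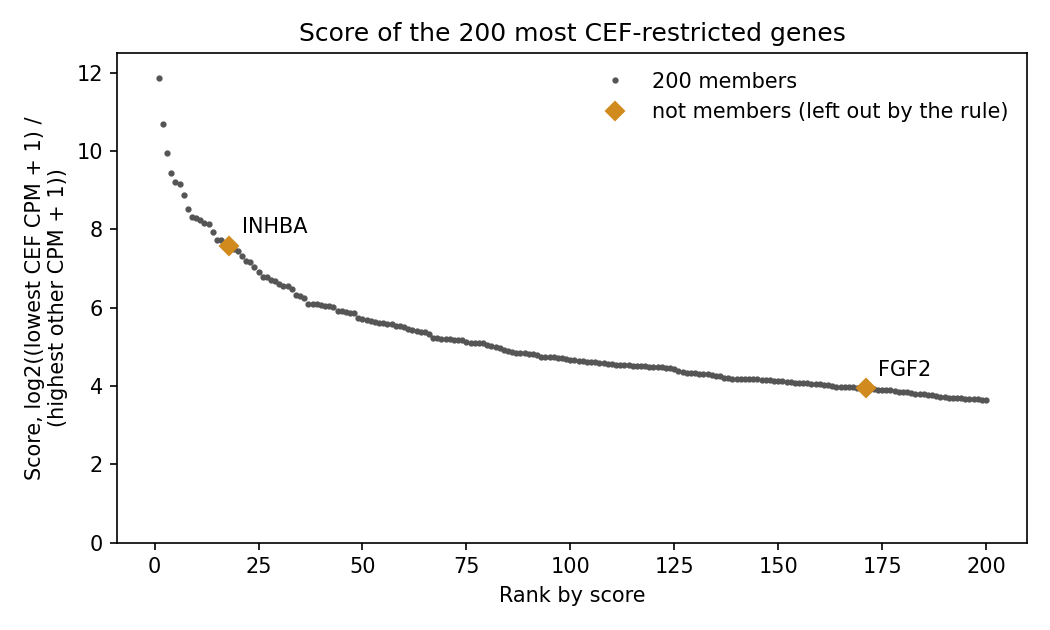
Score of each member (y axis, log2 ratio of the lowest CEF value to the highest other value, 1 CPM added to both) by rank (x axis). Diamonds mark INHBA and FGF2, which the rule left out and which would have ranked 18 and 171. The curve starts at 11.85 and ends at 3.65.

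The leading members show how far the levels were apart. Rank 1 had 40, 22, and 28 counts in PGCs and 16, 33, and 45 counts in EGK.X blastoderms, against 317376, 197509, and 303102 counts in CEFs. Its normalized level was 0.547 ± 0.0606 CPM in PGCs and 0.454 ± 0.209 CPM in EGK.X blastoderms, against 6562 ± 571 CPM in CEFs (SD, n = 3 each). Rank 3 had 9, 3, and 5 counts in PGCs and 0, 6, and 1 counts in EGK.X blastoderms, against 55864, 46209, and 46806 counts in CEFs. Neither gene had more than 45 counts in a library outside CEFs, yet reads of both were found there.

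The median member had 58.5 to 103 counts in a PGC library and 64.5 to 84 counts in an EGK.X library, against 6330 to 9452 counts in a CEF library. No member had 0 counts in all 6 PGC and EGK.X libraries. With at most 3 counts in each library of a group defined as the floor, 5 members were at the floor in PGCs and EGK.X blastoderms alike. A further 9 were at the floor in PGCs only and 7 in EGK.X blastoderms only. In all 3 PGC libraries 3 members had no count (ranks 51, 69, and 120), and in all 3 EGK.X libraries another 3 had none (ranks 11, 54, and 78). Set against a floor of 3 counts per library, CEF levels of the first 3 were at least 977-fold, 1208-fold, and 514-fold higher than those of PGCs. For the other 3, CEF levels were at least 11856-fold, 1529-fold, and 1000-fold higher than those of EGK.X blastoderms. The floor covers counting error only.

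A list of CEF genes made from absence alone would be a different list. There were 344 genes with a count in some CEF library and none in the other 6, and 0 of them were members. Their summed CEF count had a median of 2, and the best placed of them would have ranked 541, with a score of 2.28. Every member, in contrast, had at least 458 counts in each CEF library.

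The members took a large part of the CEF libraries. They held 0.326%, 0.339%, and 0.341% of the counts in PGCs and 0.169%, 0.180%, and 0.184% in EGK.X blastoderms, against 15.4%, 19.9%, and 17.8% in CEFs. Their summed level was 2744 ± 167 CPM in PGCs and 1645 ± 34.5 CPM in EGK.X blastoderms, against 233649 ± 34987 CPM in CEFs (SD, n = 3 each). The Wilson 95% interval of each of these shares was at most 0.0119 percentage points to either side, for counting error only. Among the 50 genes with most counts, 0 to 1 were members in a PGC library and none in an EGK.X library, against 16 to 19 in a CEF library. Since the choice asked for a high CEF level, these shares describe the members and were not tested. TMM factors were 1.03 to 1.26 in the PGC and EGK.X libraries and 0.739 to 0.771 in the CEF libraries. CPM values divide by the adjusted total, so these factors raise them in CEFs and lower them elsewhere. The shares of counts do not use the factors. For the same score turned to the other groups, the 200 genes so chosen held 6.35% to 7.49% of the counts in PGCs and 2.75% to 2.92% in EGK.X blastoderms.

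**Figure D2:**
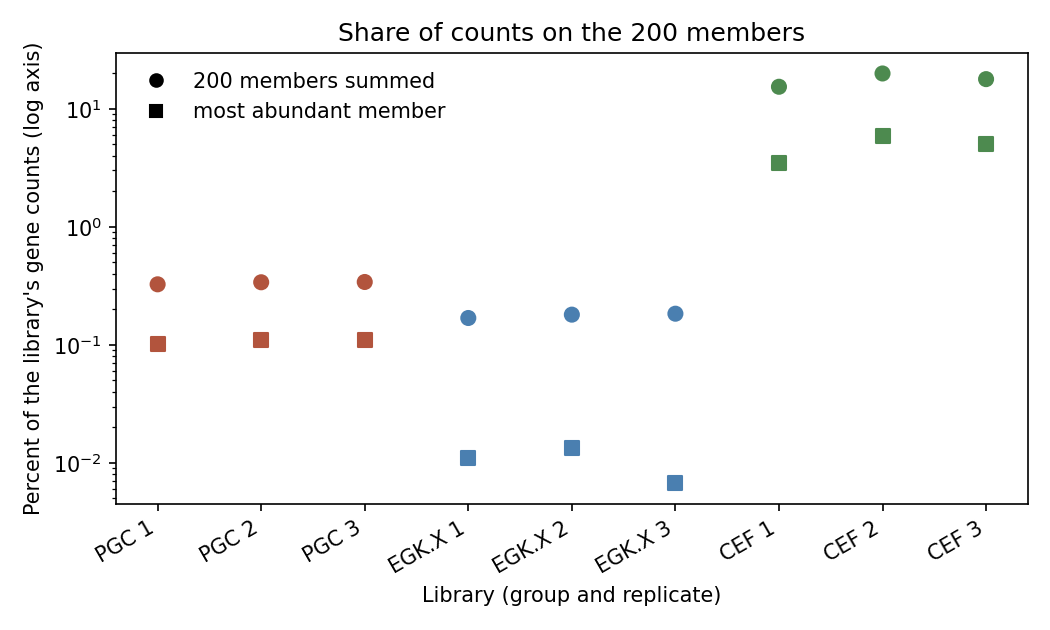
Percent of the gene counts of each library (y axis, log axis) that fell on the 200 members together (circles) and on the most abundant member, rank 56 (squares). The members hold 15.4% to 19.9% in the 3 CEF libraries and at most 0.341% in the other 6.

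These counts were concentrated in few genes. The 10 most abundant members held 62.0% to 64.8% of all member counts in a CEF library. Rank 56 was the most abundant, and no other gene of any kind had more counts in a CEF library. It had 56998, 32529, and 54956 counts in PGCs and 7038, 9067, and 4048 counts in EGK.X blastoderms, against 2263234, 2540814, and 2761358 counts in CEFs. It made up at most 0.0134% of the counts of an EGK.X library, against 3.48%, 5.84%, and 5.03% in CEFs. It was thus also an abundant transcript in PGCs, at place 48 to 55 of all genes by count. Without it, the other members held 0.224% to 0.231% of a PGC library and 0.158% to 0.177% of an EGK.X library, against 11.9% to 14.1% of a CEF library. Gene lengths were not used here, so counts were not compared between genes per length.

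The level that remained outside CEFs differed widely among members. The median of the group means over the members was 1.54 CPM in PGCs and 1.01 CPM in EGK.X blastoderms, against 209 CPM in CEFs. As a percent of the CEF mean, the level in PGCs had a median of 0.922%, with quartiles of 0.186% and 2.18% and a maximum of 6.07%. The level in EGK.X blastoderms had a median of 0.567%, with quartiles of 0.179% and 1.91% and a maximum of 5.99%. With 1 CPM as the limit for a group mean, 86 members reached it in PGCs and in EGK.X blastoderms, 28 in PGCs only, 15 in EGK.X blastoderms only, and 71 in neither. Across the 200 members, Spearman's rho of the mean levels was 0.67 for PGCs with CEFs, 0.61 for EGK.X blastoderms with CEFs, and 0.78 for PGCs with EGK.X blastoderms. These are descriptions across genes, which are not independent and share their libraries and their lengths. The choice also required a member with a high level outside CEFs to have a higher CEF level. The values with CEFs are therefore partly set by the choice. It also held the levels in PGCs and EGK.X blastoderms under the same CEF level, so the value between these groups is not free of the choice. None of these values was tested.

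**Figure D3:**
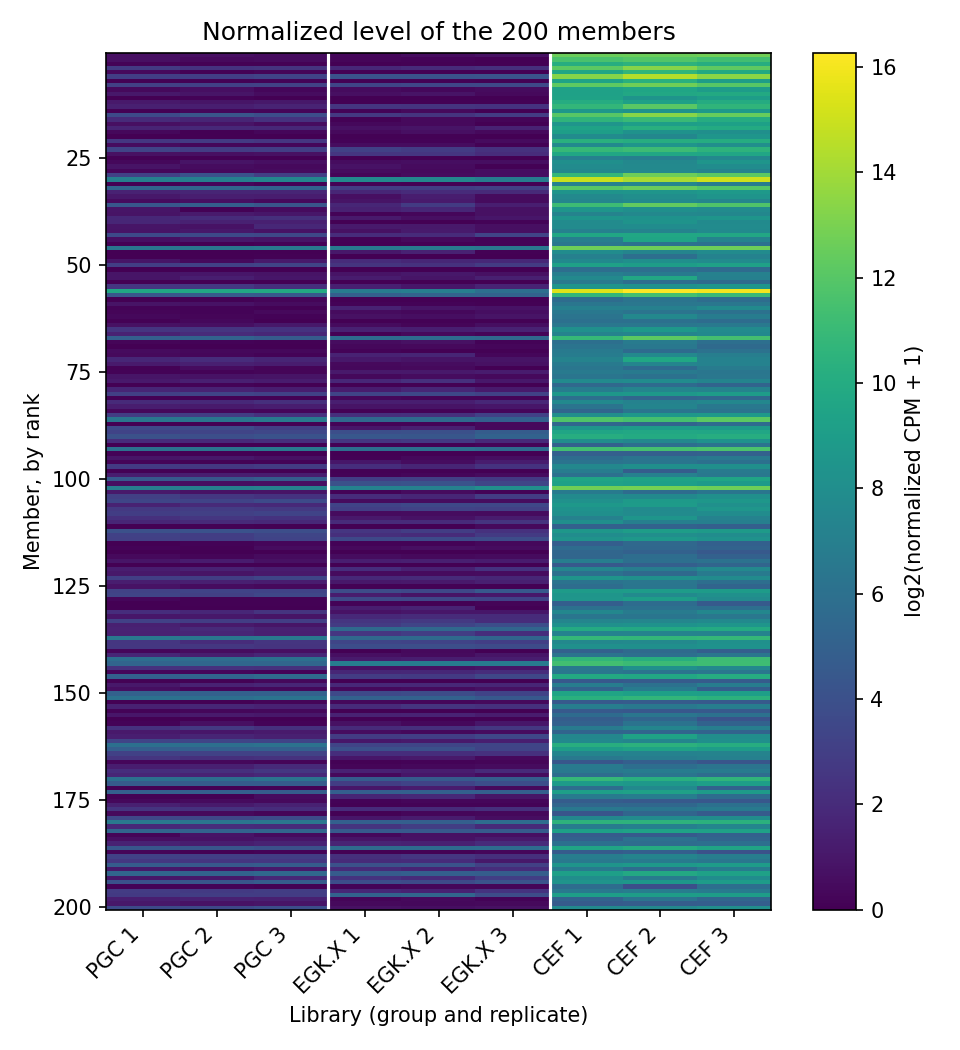
Normalized level, log2(CPM + 1), of each member (rows, by rank) in each library (columns, PGCs, EGK.X blastoderms, and CEFs, 3 replicates each). The CEF columns are high throughout, while the other columns are near 0 except for bands of members with remaining counts, such as rank 56.

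The choice of members capped the highest of the 6 PGC and EGK.X values but did not use which of these groups held it. The calls below use the same 6 values. The EGK.X libraries varied more between replicates than the PGC libraries, as given below, so the cap need not bear equally on both groups. Its part in the calls was not tested. The comparison of PGCs with EGK.X blastoderms asks whether the genes that are low in both are equally low. Of the 200 members, 72 were higher in PGCs and 35 were lower, by edgeR's quasi-likelihood test over all genes with Benjamini-Hochberg adjustment. Calls required an adjusted p below 0.05 together with an absolute log2 fold change above 1. The calls higher in PGCs made up 36.0% of the members, against 23.4% of all 22698 genes tested, and the calls lower in PGCs made up 17.5% of the members, against 18.5% of all genes. The median log2 fold change of PGCs over EGK.X blastoderms was 0.45 for the members and 0.03 for all genes, and 57% of the members were above 0, against 50.7% of all genes. With limma on log2(normalized value + 1), which compresses low levels, 43 of the 200 members were called higher and 16 lower. Of all 22698 genes, limma called 3430 higher and 2825 lower. Its medians were 0.10 for the members and 0.01 for all genes. All members entered the test through their counts in CEFs, including some with as little as 1 count over the 6 PGC and EGK.X libraries together. Of the 179 members with at least 30 counts over those 6 libraries, 68 were called higher in PGCs (38.0%, against 27% of the 18317 genes with as many) and 34 were called lower (19.0%, against 21.9%).

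Separation of the libraries describes the same values in another way and is no separate support for the calls. Every PGC library lay above every EGK.X library for 85 members, or 42.5%, against 33.4% of all genes. Every PGC library lay below every EGK.X library for 50 members, or 25%, against 30.3% of all genes. These shares were over all 22698 genes with any count and were not matched to the members by count in the 6 libraries. The calls were spread over the ranks, with 17, 17, 17, and 21 members higher in PGCs in the successive sets of 50 ranks, and 6, 10, 11, and 8 lower. Library size alone in place of TMM moved the median of all genes by 0.18, to 0.21. Relative to all genes the members stood at 0.42 under both scalings. A change of scaling moves all genes by nearly the same amount, so this value could hardly differ and is no check on the result.

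**Figure D4:**
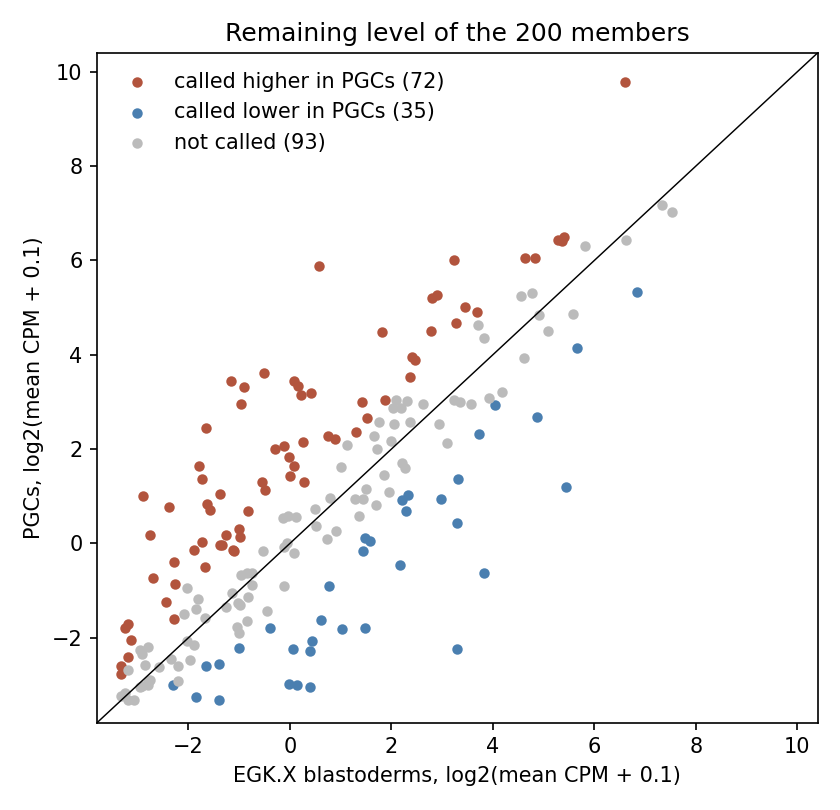
Mean level of each member in PGCs (y axis) and in EGK.X blastoderms (x axis), both as log2(CPM + 0.1), with the line of equal level. Colors give the call of PGCs against EGK.X blastoderms, with 72 members higher in PGCs, 35 lower, and 93 not called.

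Among members called higher in PGCs with at least 30 counts in every PGC library, the largest difference was that of ENSGALG00000002678 (rank 40), with 161, 67, and 97 counts in PGCs and 0, 0, and 7 counts in EGK.X blastoderms, beside 11567, 10504, and 9166 counts in CEFs. Its log2 fold change of PGCs over EGK.X blastoderms was 5.73 (standard error 0.54, edgeR adjusted p = 2.44e-06), and the size rests on the 7 counts of EGK.X replicate 3, without which the EGK.X libraries are at 0 and the fitted value of 9.69 depends on the prior count. The next, ENSGALG00000006851 (rank 142), was better measured. It had 57.8, 56.2, and 63.2 CPM in PGCs and 1.26, 1.43, and 1.47 CPM in EGK.X blastoderms, beside 1650, 1167, and 2263 CPM in CEFs. Its log2 fold change was 5.41 (standard error 0.24, edgeR adjusted p = 5.43e-09), and the PGC and EGK.X libraries did not overlap. The higher CEF level was fixed by the choice of members.

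In the other direction, the same rule with the EGK.X libraries gave a further pair. ENSGALG00000012420 (rank 128) had 15, 2, and 4 counts in PGCs and 699, 713, and 581 counts in EGK.X blastoderms, beside 18364, 17447, and 9780 counts in CEFs. Its log2 fold change was -6.26 (standard error 0.42, edgeR adjusted p = 1.52e-07), and the size rests on few PGC counts. The value was -7.24 without PGC replicate 1, -6.06 without replicate 2, and -5.96 without replicate 3. With limma it was -3.26. ENSGALG00000006507 (rank 101) had 0.498, 0.540, and 0.615 CPM in PGCs and 15.4, 17.2, and 9.53 CPM in EGK.X blastoderms, beside 628, 573, and 460 CPM in CEFs. Its log2 fold change was -4.67 (standard error 0.25, edgeR adjusted p = 2.56e-08). In both genes every PGC library lay below every blastoderm library. That both groups lay below every CEF library was fixed by the choice of members.

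The most abundant member also differed between the groups. Rank 56 had 811, 878, and 939 CPM in PGCs and 107, 126, and 59.5 CPM in EGK.X blastoderms, and the log2 fold change was 3.17 (standard error 0.27, edgeR adjusted p = 1.05e-06). Rank 30, the next most abundant by its mean level in CEFs, had 128, 133, and 174 CPM in PGCs and 189, 176, and 115 CPM in EGK.X blastoderms, beside 30448, 18426, and 33800 CPM in CEFs. Its log2 fold change was -0.14 (standard error 0.24, edgeR adjusted p = 0.627), so it did not pass the test, and the libraries of the 2 groups overlapped. Rank 6 had 490, 268, and 495 counts in PGCs and 1064, 1142, and 1159 counts in EGK.X blastoderms, and it was called lower in PGCs, at a log2 fold change of -1.11 (standard error 0.25, edgeR adjusted p = 0.00206).

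As examples of members at the floor in PGCs only or in EGK.X blastoderms only, ranks 69 and 154 are given by their counts. Rank 69 had 0 counts in each PGC library and 18, 25, and 15 counts in EGK.X blastoderms, at least 4.80-fold higher in EGK.X blastoderms against the floor. Rank 154 had 8, 9, and 15 counts in PGCs and 0, 0, and 2 counts in EGK.X blastoderms. The fitted fold changes of such genes depend on the prior count and are not given. They still count among the calls. Of the 72 members called higher in PGCs, 6 were at the floor in EGK.X blastoderms only. Of the 35 called lower, 6 were at the floor in PGCs only.

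Blastoderm replicate 3 stood apart, for members and for genes at large. Of the 144 members with 30 counts or more in an EGK.X library, replicate 3 was more than 2-fold below both other blastoderm libraries for 16 (11.1%, against 7.11% of all genes with as many counts) and more than 2-fold above both for 6 (4.17%, against 6.26%). Replicates 1 and 2 were so far below both others for 2 and 3 members and so far above for 1 and 2. The lowest was rank 130, with 2, 0, and 2 counts in PGCs and 95, 154, and 4 counts in EGK.X blastoderms, against 3354, 2090, and 2597 counts in CEFs. Rank 47 had the same order, with 1, 1, and 2 counts in PGCs and 68, 137, and 5 counts in EGK.X blastoderms, against 12143, 5420, and 9574 counts in CEFs. Both genes had few counts in EGK.X replicate 3, close to those of the PGC libraries, and many more in the other blastoderm libraries. The median coefficient of variation (CV) was 23.6% over the EGK.X libraries for the 111 members with at least 30 counts in each, against 18.6% for all such genes. Over the PGC libraries it was 13.4% for 119 members, against 7.97% for all such genes. Beyond the limit of 30 counts, members and other genes were not matched by count. Counting error weighs more at low counts, and its part in the differences between members and all genes was not tested. The shares and CVs also use values that entered the score, which fell as the highest PGC or EGK.X value rose. A member with 1 high EGK.X library was therefore less likely to be chosen. These shares and CVs are descriptions, and the part of the choice in them was not tested.

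Within CEFs, the members varied more between replicates than well-counted genes did as a whole, a set that includes them. Their CV over the 3 CEF libraries had a median of 21.0%, with quartiles of 12.1% and 31.0%, and the 10352 genes with at least 100 counts in every CEF library had a median of 13.4%, with quartiles of 7.83% and 22.2%. The highest and lowest CEF library differed 2-fold or more for 40 members, or 20.0%, against 9.12% of those genes. These values and the counts by replicate that follow are descriptions. Members are not replicates of one another, and the score used the lowest of the same 3 CEF values. CEF replicate 2 was highest for 95 members (47.5%), replicate 3 for 67, and replicate 1 for 38, while replicate 2 was highest for 33.3% of the well-counted genes.

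**Figure D5:**
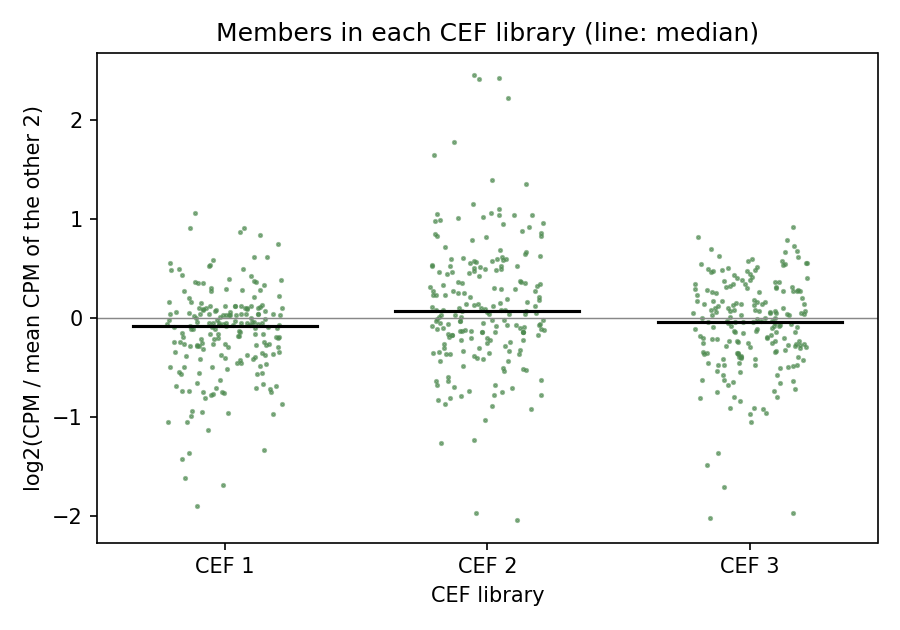
Level of each member in each CEF library (x axis) relative to the mean of the other 2 CEF libraries (y axis, log2 ratio), with the median as a line. The medians lie between -0.08 and 0.08, and a few members reach over 2 in CEF replicate 2.

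The widest spreads were in CEF replicate 2. In that library 10 members were more than 2-fold above both other CEF libraries, against 1 member in replicate 1 and 0 in replicate 3. Of the well-counted genes, 1.56% behaved so in replicate 2, 0.261% in replicate 1, and 0.406% in replicate 3. More than 2-fold below both other CEF libraries were 4 members in replicate 2, 2 in replicate 1, and 0 in replicate 3. For this direction the share of the well-counted genes was not computed. Since the score used the lowest CEF value, the counts above and below are not compared. Rank 72 had the largest CV, with 2.42, 3.16, and 2.19 CPM in PGCs and 1.03, 0.831, and 0.823 CPM in EGK.X blastoderms, against 152, 827, and 150 CPM in CEFs. Rank 44 had 121, 742, and 154 CPM in CEFs and rank 53 had 198, 880, and 133 CPM. In each of these genes CEF replicate 2 was high, and the choice of members required the other CEF libraries to lie far above PGCs and EGK.X blastoderms. Other members were steady. Rank 102 had 120, 129, and 144 CPM in PGCs and 149, 142, and 263 CPM in EGK.X blastoderms, against a mean of 6946 ± 387 CPM in CEFs (SD, n = 3), a CV of 5.57% over the CEF libraries.

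The contrasts with CEFs are given for size only. All 200 members were called lower in PGCs than in CEFs, where 18.5% of all genes were called lower, and all 200 were called lower in EGK.X blastoderms, where 21.6% were. The choice of members fixed these counts. The median log2 fold change of the members was -6.77 for PGCs and -7.46 for EGK.X blastoderms, and both contrasts share the CEF libraries. The lowest CEF value was at least 10 times the highest other value for all 200 members and at least 100 times for 58.

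Named genes that the rule left out serve as landmarks on the same scale. INHBA encodes the subunit of activin A, a secreted ligand of the TGF-beta family, and its score of 7.58 would have ranked 18. It had 4, 0, and 1 counts in PGCs and 2, 2, and 0 counts in EGK.X blastoderms, against 13612, 6453, and 10548 counts in CEFs. FGF2, a growth factor named for its action on fibroblasts, had a score of 3.94, which would have ranked 171. It had 2.02, 1.27, and 1.35 CPM in PGCs and 1.97, 2.51, and 0.925 CPM in EGK.X blastoderms, against 85.7, 52.8, and 107 CPM in CEFs. Both genes had no library outside CEFs near the CEF range.

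Other named genes of the supplementary list fell short of the limit. MAP3K5, a stress-activated kinase upstream of JNK and p38, scored 2.96, the death receptor FAS scored 2.65, and the pore-forming BCL2 family member BAK1 scored 2.33. IGF1, a growth factor that acts through IGF1R, shows what the lowest CEF library does to the score. It had 1, 0, and 0 counts in PGCs and 0, 0, and 3 counts in EGK.X blastoderms, against 434, 464, and 85 counts in CEFs. Its score was 1.53, because CEF replicate 3 had only 2.02 CPM. Its CEF level was also low in replicates 1 and 2, at 8.66 and 14.4 CPM. A gene with uneven CEF replicates or a low CEF level could thus be absent from the list although it was near the floor elsewhere.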

How the data were processed

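The members and lists were chosen with earlier results of these data known. Stranded libraries of ribosomal RNA-depleted total RNA were sequenced from both ends on an Illumina instrument. According to the methods and the submitters' processing notes, the authors trimmed with Trimmomatic 0.39, aligned to GRCg6a with HISAT2 2.2.0, and obtained counts per Ensembl gene with HTSeq-count, for which strand setting and overlap mode are not given in the sources used here. Overlapping and antisense genes are therefore uncertain. The authors also deposited a normalized signal, the counts in CPM on the TMM-adjusted library size, and values recomputed from the counts differed from it by at most 3.25e-06%. Records that HTSeq-count put on no gene made up 46.6% to 51.5% of a library and entered no library size.

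The score used the normalized values with 1 CPM added. The fit held all 22698 genes that had any count and used edgeR 4.0.16 (R 4.3.3, TMM, quasi-likelihood test, no replicate block), with Benjamini-Hochberg adjustment over all of them. Standard errors were taken as the absolute log2 fold change divided by the root of its F statistic. The test was first tested on simulated data. The study's likelihood ratio test served as an alternative. Others were DESeq2 1.42.0 and its size factors, library size alone, filterByExpr, limma 3.58.1 on log2(normalized value + 1), other pseudocounts and group means in the score, and leaving out 1 library at a time. The identifiers named were the 2 with the largest change in each direction among members called in PGCs against EGK.X blastoderms with 30 counts or more in all libraries of the higher side, and landmarks were supplementary-list genes at or above the score of rank 200. Other members given by rank, and IGF1, MAP3K5, FAS, BAK1, NANOG, and Pou5f3, were chosen after their values were seen. No identifier matched the reference table, so planned counts over lists of matrix, HOX, muscle, and other marker genes were not run.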

Additional observations from a re-analysis of the deposited data

How the results depend on the processing

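For the 72 members called higher and the 35 called lower in PGCs than in EGK.X blastoderms, every alternative stayed within 1.5 times the count except limma on the normalized matrix, which called 43 and 16, where 1 CPM is added to levels that were often below it. Over all 22698 genes, the main fit called 5300 higher and 4200 lower, and limma called 3430 and 2825. For ENSGALG00000002678 limma gave a log2 fold change of 1.49, against 5.73 by edgeR. Leaving out a library in turn gave 66 to 72 higher and 34 to 39 lower. Of the members, 57 and 32 were called so in all 9 of these fits, a count that was not made over all genes. Over the 22580 to 22649 genes tested, these fits called 4650 to 5380 higher and 3831 to 4284 lower. Every member called higher or lower under TMM was also called so by DESeq2 and by the likelihood ratio test. That overlap was not counted over all genes either. The median log2 fold change of the members, 0.45, was 0.63 with library size alone, 0.10 with limma, and 0.40 to 0.56 without 1 library, with the highest value without EGK.X replicate 3. TMM factors computed without the members, an alternative added after the data were seen, gave 71 higher and 38 lower. Counting only genes with 30 counts over the 6 PGC and EGK.X libraries, also added then, gave 68 and 34. Over all genes, the first called 5212 higher and 4303 lower of 22698, and the second 4939 and 4017 of 18317. The same-numbered PGC and EGK.X libraries did not deviate together (r of -0.104, -0.0572, and -0.191 over 12270 genes). The replicate block gave 73 higher and 36 lower, beside 4994 and 3911 of all 22698 genes.

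The list of members was redrawn under each setting. It kept 161 of the 200 with a pseudocount of 0.1, 161 with a pseudocount of 5, 172 with group means, 195 with library size alone, 197 with DESeq2 size factors, and 178 to 200 without 1 library, with the fewest without CEF replicate 2. Under every setting tried, 126 members were taken. Planned counts over the matrix gene list were not run, because no identifier was paired with a name. Levels near 3 counts limit the fold changes of the members at the floor.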
